A study of Mus musculus with 12 samples.

Results

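The response of wild-type mouse lungs to bleomycin was read from 6 arrays, 3 of bleomycin-treated mice (WTT 160, WTT 161 and WTT 164) and 3 of mice given PBS (WTC 76, WTC 157 and WTC 158), out of 12 arrays in the series. The mice were chosen by the group in their sample titles, and every one of the 23410 transcript clusters with a gene symbol was compared. The study asked how Fra-1, a subunit of the transcription factor AP-1 that is encoded by Fosl1, shapes the early lung response to bleomycin. Total RNA from the lung, the left lung in the methods, was hybridised to Affymetrix MoGene 1.0ST arrays, with 1 array for each mouse. WTC and WTT mice were Fra-1+/+ animals on a C57/129S background, labelled as females 2 months old (the methods give a slightly older range), and received 30 µL of PBS without or with 0.075 U of bleomycin into the trachea 5 days before the lungs were taken. In the methods these wild-type mice carry the floxed Fra-1 allele without Cre. The 6 remaining arrays hold Fra-1-/- mice under the same regimens, 3 with PBS (KOC) and 3 with bleomycin (KOT), in which a Meox2-driven Cre had removed the floxed allele from the embryo.

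Bleomycin is an antitumour glycopeptide that breaks DNA, and its instillation into the airways is a common rodent model of acute lung injury followed by scarring. The injured alveolus loses its thin alveolar type 1 cells, type 2 cells serve as their progenitors through a keratin-rich transitional state, monocytes enter and become macrophages, and fibroblasts lay down collagen and other matrix. At an early time the model therefore mixes DNA damage, inflammation, repair and the first steps of matrix production.

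The deposited log2 values had medians between 7.14 and 7.22 per array, and each wild-type mouse correlated with the others of its group at 0.987 to 0.990 on average. Markers of lung were near the top of the scale, with Sftpc (surfactant protein C, type 2 cells) between 13.64 and 14.05, Scgb1a1 (club cells) between 13.62 and 13.93 and Ager (type 1 cells) between 12.05 and 13.14. The 11 measured genes of tissues outside the alveoli, such as neurons and skeletal muscle, had mean levels from 4.37 to 7.17 with a median of 6.36. They include Krt5, Krt14 and Trp63, which airway cells can express, so they give only a rough sense of the background. The labelled sex was contradicted, since on 12 of 12 arrays the mean of 4 Y-linked genes lay between 8.08 and 8.34 and Xist between 4.47 and 4.94. WTC 76 is the only wild-type mouse with a low animal number, so values that it moves most are given with and without it. Since 3 mice against 3 cannot give an exact two-sided p below 0.1, the p-values of single genes come from limma, which borrows the variance of other clusters, so precision is bounded by how few arrays there are. Each array is presented in the labels as a separate mouse.

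Bleomycin changed the level of many measured transcripts in both directions. By limma, at a Benjamini-Hochberg adjusted p under 0.05, 2386 of 23410 clusters rose (10.2%) and 2641 fell (11.3%), with a median log2 fold change of 0.47 among those that rose and -0.52 among those that fell. All WTT mice lay above all WTC mice in 4286 clusters (18.3%) and below them in 4081 (17.4%). Among the clusters that passed, the groups were apart in 2331 of those that rose and 2605 of those that fell. The changes were mostly modest, as 319 clusters rose and 263 fell by at least 1 on the log2 scale (2-fold), and 44 and 33 by at least 2. Over all clusters the median change was 0.02. At an unadjusted p under 0.05 by limma, 7869 of the 23410 clusters differed, in either direction. Without WTC 157 the number of clusters that rose was 1430. The level and the change of each cluster with a single symbol are plotted together.

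**Figure D1:**
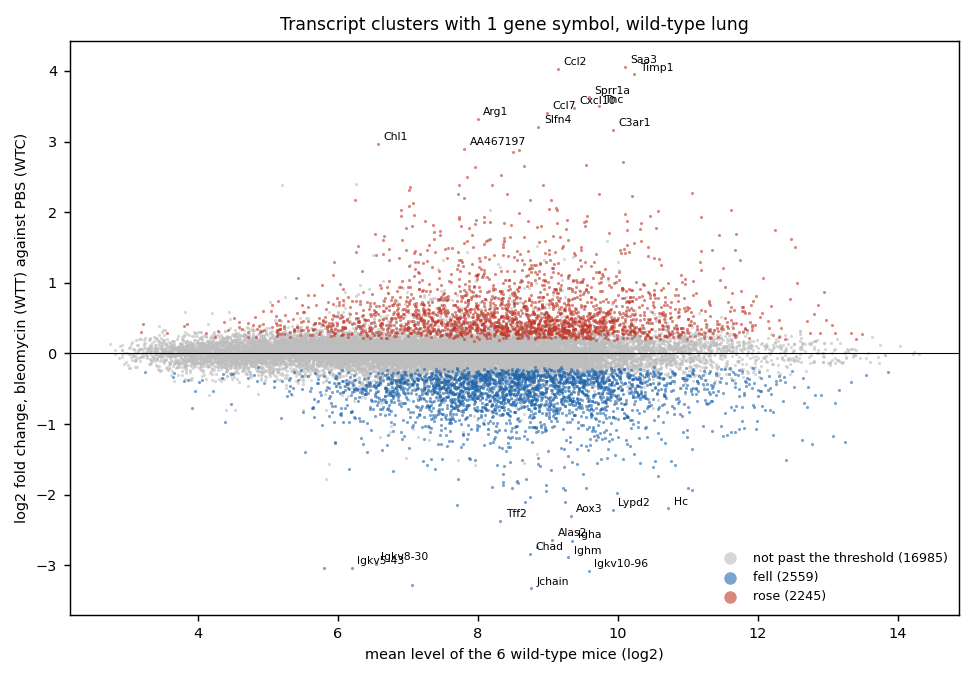
Log2 fold change of bleomycin (WTT) against PBS (WTC) on the vertical axis and the mean log2 level of the 6 wild-type mice on the horizontal axis, with 1 point for each of the clusters with 1 gene symbol; red points rose (2245), blue points fell (2559) and grey points did not pass. Changed genes lie at all levels above the background, and the labelled points are the 12 largest rises and the 12 largest falls.

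The single genes that rose most encode chemokines, an acute phase protein, matrix proteins and products of injured epithelium and myeloid cells. In what follows, the values of a gene are log2 levels in the order WTC 76, WTC 157 and WTC 158, then WTT 160, WTT 161 and WTT 164, and each change is on the log2 scale, followed by its SE as fitted. Saa3, a serum amyloid A protein, read between 7.26 and 8.97 with PBS and 11.56, 12.06 and 12.79 with bleomycin, a rise of 4.06 (SE 0.53, 16.7-fold, limma adjusted p = 6.1e-04). Ccl2, the main ligand that draws monocytes through Ccr2, read 7.35, 6.90 and 7.15 and then 10.32, 11.31 and 11.86, a rise of 4.03 (SE 0.52, 16.3-fold). Timp1, an inhibitor of matrix metalloproteinases, read 8.32, 8.23 and 8.23 and then 11.99, 11.92 and 12.73, a rise of 3.95 (SE 0.29, 15.5-fold). The rule that chose the 12 largest rises required every treated mouse to lie above every PBS mouse. For Saa3, Ccl2 and Timp1 the gap between the groups was also wider than the spread within either. Sprr1a, a small proline-rich protein of the cornified envelope, rose by 3.62 (SE 0.30), from 7.59, 7.59 and 8.15 to 11.31, 11.27 and 11.63. Tnc, the matrix glycoprotein tenascin C, rose by 3.50 (SE 0.24), from 8.48, 7.58 and 7.89 to 11.20, 11.43 and 11.82. The chemokine Cxcl10 rose by 3.48 (SE 0.61), from 8.14, 6.95 and 7.80 to 10.43, 10.61 and 12.30, and by 2.89 without WTT 164. The other 6 of the 12 largest rises were Ccl7 (3.41), a second Ccr2 ligand, Arg1 (3.33), the arginase of activated macrophages, Slfn4 (3.21), a schlafen gene of myeloid cells, C3ar1 (3.17), the receptor for the complement fragment C3a, the adhesion molecule Chl1 (2.97) and AA467197 (2.89). Slfn4 was the least secure of them, since its WTT values ran from 9.23 to 11.91 and its adjusted p rose to between 0.0558 and 0.0895 when WTC 157, WTC 158, WTT 161 or WTT 164 was left out.

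**Figure D2:**
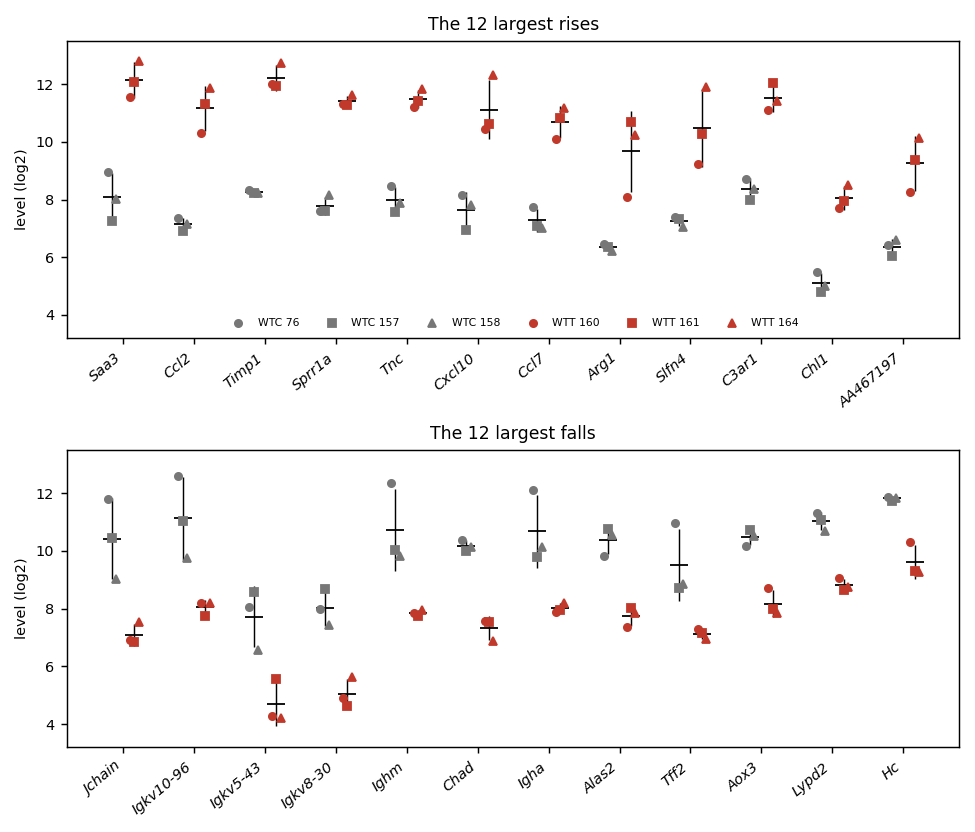
Log2 level of each wild-type mouse for the 12 genes with the largest rises (upper panel) and the 12 with the largest falls (lower panel); grey symbols are PBS mice, red symbols bleomycin mice, horizontal bars group means and vertical bars SD (n = 3). The groups do not overlap for any gene, because the rule that chose them required it, and WTC 76 lies apart from the other PBS mice for Ighm, Igha and Tff2.

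Immunoglobulin genes made up 6 of the 12 largest falls, and the others were of several kinds. Jchain, which joins immunoglobulin A and M into polymers, read 11.81, 10.44 and 9.02 with PBS and 6.90, 6.85 and 7.53 with bleomycin, a fall of 3.33 (SE 0.66, adjusted p = 0.00461), with a change of -2.63 without WTC 76 and -4.03 without WTC 158. The 3 kappa light chain variable segments among them, which include Igkv5-43 and Igkv8-30, changed by between -3.08 and -2.98, and Ighm and Igha, the constant regions of immunoglobulin M and A, by -2.89 and -2.66. Segments of this family share sequence, so the signal of a probe set cannot be assigned to 1 segment with certainty, and the 3 clusters of Ighm fell by 2.89, 1.90 and 3.28. The fall of Ighm rested in part on WTC 76, which read 12.37 against 10.03 and 9.81 in the other PBS mice. Without WTC 76 Ighm changed by -2.07 (adjusted p = 0.0903) and Igha by -1.94 (adjusted p = 0.0792), and both also missed the threshold without WTT 160, WTT 161 or WTT 164, at an adjusted p between 0.0536 and 0.0752. Igkv5-43 missed it in 5 of the 6 omissions, all but that of WTC 158, at 0.0523 to 0.130. Chad, the cartilage-type matrix protein chondroadherin, was steadier, with a PBS mean of 10.17 and then 7.59, 7.54 and 6.87, a fall of 2.84 (SE 0.26, 7.17-fold). The remaining falls were Alas2 (-2.64), the haem synthesis enzyme of red cell precursors, Tff2 (-2.37, and -1.65 without WTC 76), a trefoil peptide of mucus, Aox3 (-2.30), an aldehyde oxidase, Lypd2 (-2.22) and Hc (-2.19), which encodes complement component C5. The tissue holds many cell types, and fewer cells of a type and less RNA per cell cannot be told apart in these data.

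The bases before the transcription start of leading genes are shown because the study turns on an AP-1 subunit and because several groups of genes moved together. Promoters were taken from RefSeq (build GRCm38.p6), 250 bases before the start, 5′ to 3′ on the strand of the gene. Genes with exactly 1 window in the table were read, 12935 of the genes tested. Sprr1a and Cldn4, a claudin of tight junctions, are genes of injured epithelium, C3ar1 is a receptor of myeloid cells, and capitals in these 3 mark the AP-1 letters TGANTCA.

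Sprr1a, chr3:92485882-92486131, minus strand: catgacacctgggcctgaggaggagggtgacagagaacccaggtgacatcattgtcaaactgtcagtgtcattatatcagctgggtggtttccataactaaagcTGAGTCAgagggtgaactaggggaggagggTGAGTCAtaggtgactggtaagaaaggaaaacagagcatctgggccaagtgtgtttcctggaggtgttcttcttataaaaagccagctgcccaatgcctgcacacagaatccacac
Cldn4, chr5:134946935-134947184, minus strand: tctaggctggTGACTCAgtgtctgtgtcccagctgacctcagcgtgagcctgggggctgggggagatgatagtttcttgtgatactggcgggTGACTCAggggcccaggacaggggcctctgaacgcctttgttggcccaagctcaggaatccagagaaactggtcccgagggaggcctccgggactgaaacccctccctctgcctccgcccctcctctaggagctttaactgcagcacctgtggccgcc
C3ar1, chr6:122856158-122856407, minus strand: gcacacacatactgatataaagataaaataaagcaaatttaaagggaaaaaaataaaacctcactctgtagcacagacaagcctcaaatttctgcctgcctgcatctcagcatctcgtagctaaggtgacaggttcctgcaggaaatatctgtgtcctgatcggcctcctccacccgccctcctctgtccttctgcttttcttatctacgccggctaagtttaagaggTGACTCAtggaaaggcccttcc

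Cxcl10 and Ifit1, an interferon-induced antiviral gene, carry the letters searched for as an interferon-stimulated response element, GAAA, then 2 bases of any kind, then GAAA, or its reverse complement. In Cxcl10 capitals mark 1 such match and, nearer the start, 1 AP-1 match, and in Ifit1 they mark 2 matches in the reverse orientation. Cdk1, the mitotic kinase, is shown for the letters of the cell cycle homology region (TTTGAA) and of the CCAAT box, which in this window reads ATTGG. No marked match overlaps another.

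Cxcl10, chr5:92348890-92349139, minus strand: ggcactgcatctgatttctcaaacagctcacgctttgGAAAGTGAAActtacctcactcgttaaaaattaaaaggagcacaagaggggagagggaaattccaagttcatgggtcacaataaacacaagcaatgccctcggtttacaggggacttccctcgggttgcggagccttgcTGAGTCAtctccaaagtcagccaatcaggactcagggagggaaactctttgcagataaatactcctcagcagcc
Ifit1, chr19:34640639-34640888, plus strand: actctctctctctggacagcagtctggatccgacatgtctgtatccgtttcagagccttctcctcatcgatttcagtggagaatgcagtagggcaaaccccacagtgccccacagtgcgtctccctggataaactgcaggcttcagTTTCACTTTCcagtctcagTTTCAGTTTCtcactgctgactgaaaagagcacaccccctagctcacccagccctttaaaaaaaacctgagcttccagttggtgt
Cdk1, chr10:69352913-69353162, minus strand: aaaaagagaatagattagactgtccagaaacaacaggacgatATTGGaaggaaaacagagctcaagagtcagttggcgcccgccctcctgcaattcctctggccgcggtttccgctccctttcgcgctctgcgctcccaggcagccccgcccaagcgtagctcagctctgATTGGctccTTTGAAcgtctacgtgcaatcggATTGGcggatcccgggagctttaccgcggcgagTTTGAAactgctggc

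Counted from the base before the start, the AP-1 matches begin at position -146 and -116 in Sprr1a, -240 and -158 in Cldn4, -22 in C3ar1 and -74 in Cxcl10. Searched on both strands, TGANTCA stood in 6.96% of the 22862 promoters of the table with 1 window and in 6.08% of the 12935 genes tested. It stood in 6.17% of the 1377 tested genes that rose and in 3.71% of the 1349 that fell. Among genes that rose at least 2-fold it stood in 23 of 196 (11.7%) and among those that fell as much in 8 of 147 (5.44%). Of the 12 largest rises 8 had a window and 5 of these held it (Sprr1a, Cxcl10, Slfn4, C3ar1 and AA467197), against none of the 5 with a window among the 12 largest falls. The interferon-stimulated response element stood in 3.11% of all windows, in 3.02% of genes tested, in 22 of the 196 (11.2%) and in 7 of 14 members of the type I interferon list. CCAAT stood in 34.7% of all windows, in 35.9% of genes tested and in 18 of 23 mitosis genes, and TTTGAA in 16.7%, 14.3% and 8 of 23. Neither was particular to mitosis genes. CCAAT stood in 14 of 14 cholesterol synthesis and 15 of 20 endoplasmic reticulum stress genes, though in 1 of 14 acute phase genes. TTTGAA stood in 4 of 12 genes of monocyte recruitment, though in 0 of 14 cholesterol synthesis genes. These are counts of letters with no test, the genes shown were picked after their values were seen, and a match is not a binding site.

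Targets of p53, the transcription factor that answers DNA breaks, rose in large number. Of 27 measured genes 16 rose and 3 fell, with a median log2 fold change of 0.47 against 0.02 over all clusters. The shares over all clusters, 10.2% that rose and 11.3% that fell, stand beside the counts of this and every later list. Eda2r, a receptor of the tumour necrosis factor receptor family, read at most 6.15 with PBS and then 7.70, 8.14 and 7.74, a rise of 1.77 (SE 0.16, adjusted p = 1.1e-04). Psrc1, a spindle protein, rose 2.82-fold, from between 6.77 and 7.06 to between 8.26 and 8.46, and Sesn2, a stress-induced sestrin, by 1.15 (SE 0.09), from between 8.06 and 8.41 to between 9.34 and 9.43. Ccng1, cyclin G1, read 11.31, 11.40 and 11.26 and then 12.15, 12.25 and 12.22, a rise of 0.89 (SE 0.08). Mdm2, the ligase that degrades p53, rose by 0.66 (SE 0.08). The 3 that fell were Rrm2b (-0.46), a ribonucleotide reductase subunit, Xpc (-0.38), which recognises DNA lesions, and Sesn1 (-0.47), whose adjusted p lay above the threshold without WTC 76, WTC 157, WTC 158 or WTT 164. Of 25 genes of damage signalling and repair 9 rose, among them Pcna (0.39, the sliding clamp of the polymerases), Brca1 (0.44) and Xrcc6 (0.31, the Ku70 subunit). The number that rose was 4 without WTC 157, 5 without WTC 158 and 3 without WTT 161. The kinases at the head of the pathway moved little, with -0.25 for Atm and -0.09 for Atr, neither past the threshold.

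Genes of cell division rose almost as a block. In the mitosis list 27 of 29 rose, with a median of 0.87, and in the DNA replication list 17 of 29, with a median of 0.38. Cdk1 read 8.62, 7.77 and 8.35 and then 9.31, 9.83 and 9.45, a rise of 1.29 (SE 0.23, adjusted p = 0.00295), and Anln, the cytokinesis scaffold anillin, rose by 1.25 (SE 0.16). Birc5, a subunit of the chromosomal passenger complex, rose by 0.90 and Ndc80, a kinetochore subunit, by 0.56. The proliferation marker Mki67 gained 0.93 (SE 0.31) but missed the threshold at an adjusted p of 0.0513. Its PBS mice read 8.99, 7.70 and 8.12, and the highest of them lay above WTT 164 at 8.89. It passed without WTC 76 (1.29, adjusted p = 0.00774) and under several other settings, such as array weights (adjusted p = 0.0297). Among replication genes Ccne1, cyclin E1, rose by 0.76, Rrm1, the large subunit of ribonucleotide reductase, by 0.69, Cdt1, a licensing factor, by 0.64 and Gins2 by 0.54. WTC 157 had the lowest cycle gene levels among PBS mice, with a median distance of -0.36 from the PBS mean for the mitosis list, and WTC 76 the highest at 0.31. Without WTC 157 the counts were 16 of 29 and 7 of 29, without WTT 161 17 and 8, and without WTC 158 11 replication genes. Of 10 histone and related chromatin genes 3 rose (H1f1, H1f5 and H2ax), all at an adjusted p over 0.05 without WTC 157, WTC 158, WTT 160 or WTT 161, and 6 rose without WTC 76.

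Genes of both alveolar epithelial cells fell. Of 18 type 1 genes 16 fell, with a median of -0.76, and of 20 type 2 genes 17 fell, with a median of -0.63. Rtkn2 read 10.20, 10.49 and 10.21 and then 8.71, 8.20 and 7.67, a fall of 2.11 (SE 0.29, 4.31-fold, adjusted p = 7.5e-04). Hopx, a homeodomain cofactor of type 1 cells, read 11.36, 11.71 and 11.69 and then 10.51, 10.14 and 10.54, a fall of 1.19 (SE 0.15). Ager, the receptor for advanced glycation end products, fell by 0.76 (SE 0.14) from between 13.00 and 13.14 to between 12.05 and 12.56. Clic5 (-0.77), a chloride channel protein, and Limch1 (-0.71) fell by a similar amount, as did Col4a3 (-0.76) and Col4a4 (-0.80), the chains of the alveolar basement membrane. Aqp5, the water channel of type 1 cells, changed by -0.28 and did not pass (adjusted p = 0.0593).

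Within the type 2 list surfactant proteins B and C moved least. Hc fell from 11.87, 11.75 and 11.83 to 10.31, 9.31 and 9.26 (-2.19, SE 0.43) and Pon1, a paraoxonase, from 9.48, 10.31 and 10.04 to 8.50, 7.29 and 8.20 (-1.95, SE 0.29). Chil1, a chitinase-like protein, changed by -1.22, Ank3 by -0.91 and Sftpa1, surfactant protein A, by -0.70 (SE 0.14). Sftpb changed by -0.11 (adjusted p = 0.317), and Sftpc by -0.26 (SE 0.08, adjusted p = 0.0365), with 13.89, 14.02 and 14.05 and then 13.80, 13.64 and 13.74. The call for Sftpc did not hold without WTC 157, WTC 158, WTT 161 or WTT 164, at an adjusted p between 0.0788 and 0.124. At these levels probes may be close to saturation, which was not tested. Without WTT 161, the mouse with the largest type 2 shift (a median of -0.85 against -0.40 in WTT 160 and -0.62 in WTT 164), 11 of the 20 genes fell.

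Genes of injured, transitional epithelium rose while those of mature alveolar cells fell. Of 20 measured 16 rose and 1 fell, with a median of 0.69. Cldn4 read between 7.81 and 8.06 and then 10.10, 10.03 and 10.28, a rise of 2.18 (SE 0.15, 4.52-fold, adjusted p = 5.4e-05). Like that of Sprr1a, its promoter window holds 2 AP-1 matches. Of the 12 list members with a window 3 held a match (25%), against 6.08% of genes tested, a count of letters with no test. Krt8, Krt18, Tnip3 and Lgals3 held none. Tnip3, an inhibitor of NF-kappaB signalling, rose by 1.53 (SE 0.14) and Lgals3, galectin 3, by 1.04 (SE 0.11). Lgals3 also stands in the macrophage list below, so its rise cannot be assigned to epithelium. The simple keratins rose less, Krt8 by 0.57 (from between 11.65 and 11.88 to between 12.14 and 12.46), Krt18 by 0.65 and Krt19 by 0.35. Fosl1, the Fra-1 gene itself, read 6.37, 6.76 and 6.86 and then 7.81, 8.19 and 8.32, a rise of 1.44 (SE 0.15, 2.72-fold). Itgb6, an integrin subunit that activates TGF-beta, changed by -0.39 (adjusted p = 0.0456), a call that was lost in every omission but that of WTC 76.

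Genes of secretory and of ciliated airway cells fell, as did genes of xenobiotic metabolism, which other lung cells also express. Of 20 club and goblet cell genes 12 fell and 1 rose, with a median of -1.10. Scgb3a1, a secretoglobin of the large airways, read 13.64, 13.09 and 12.75 and then 11.31, 12.34 and 11.27, a fall of 1.52 (SE 0.29), and Scgb3a2 fell by 1.29 (SE 0.17). Scgb1a1, the most abundant product of club cells, changed by only -0.13 (SE 0.07, adjusted p = 0.229), and the 13.62 to 13.73 of WTT just overlapped the 13.72 to 13.93 of WTC. Cyp2f2, the club cell cytochrome P450, fell by 1.26 (SE 0.17), from 13.77, 13.91 and 13.96 to 13.02, 12.49 and 12.36. Tff2 stood at 10.96 in WTC 76 but at 8.72 and 8.85 in the other PBS mice. The gene that rose was Gsto1 (0.32), and it lost its call in each of the 6 omissions.

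Of 22 ciliated cell genes 18 fell, with a median of -0.56. Tppp3, a tubulin polymerisation protein, read 12.06, 12.10 and 12.25 and then 11.12, 10.85 and 10.98, a fall of 1.16 (SE 0.09, adjusted p = 5.9e-05). Rsph4a, a radial spoke protein, fell by 1.04 (SE 0.11), Hydin, of the central pair, by 1.04 (SE 0.11), and the dynein heavy chains Dnah5 and Dnah9 by 0.72 and 0.52. Foxj1, the transcription factor that sets up motile cilia, changed by -0.16 (adjusted p = 0.256). In the list of cytochrome P450 and other xenobiotic enzymes 17 of 21 fell, with a median of -0.95. Aox3 read 10.18, 10.73 and 10.52 and then 8.72, 7.98 and 7.84, a fall of 2.30 (SE 0.24), and the glutathione transferases Gstm1 and Gsta3 fell by 1.12 (SE 0.11) and 1.11 (SE 0.15). The exception in direction was Cyp1b1, which read 7.77, 8.46 and 9.23 in WTT against 7.23 to 7.64 in WTC and did not pass (1.03, adjusted p = 0.0741).

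**Figure D3:**
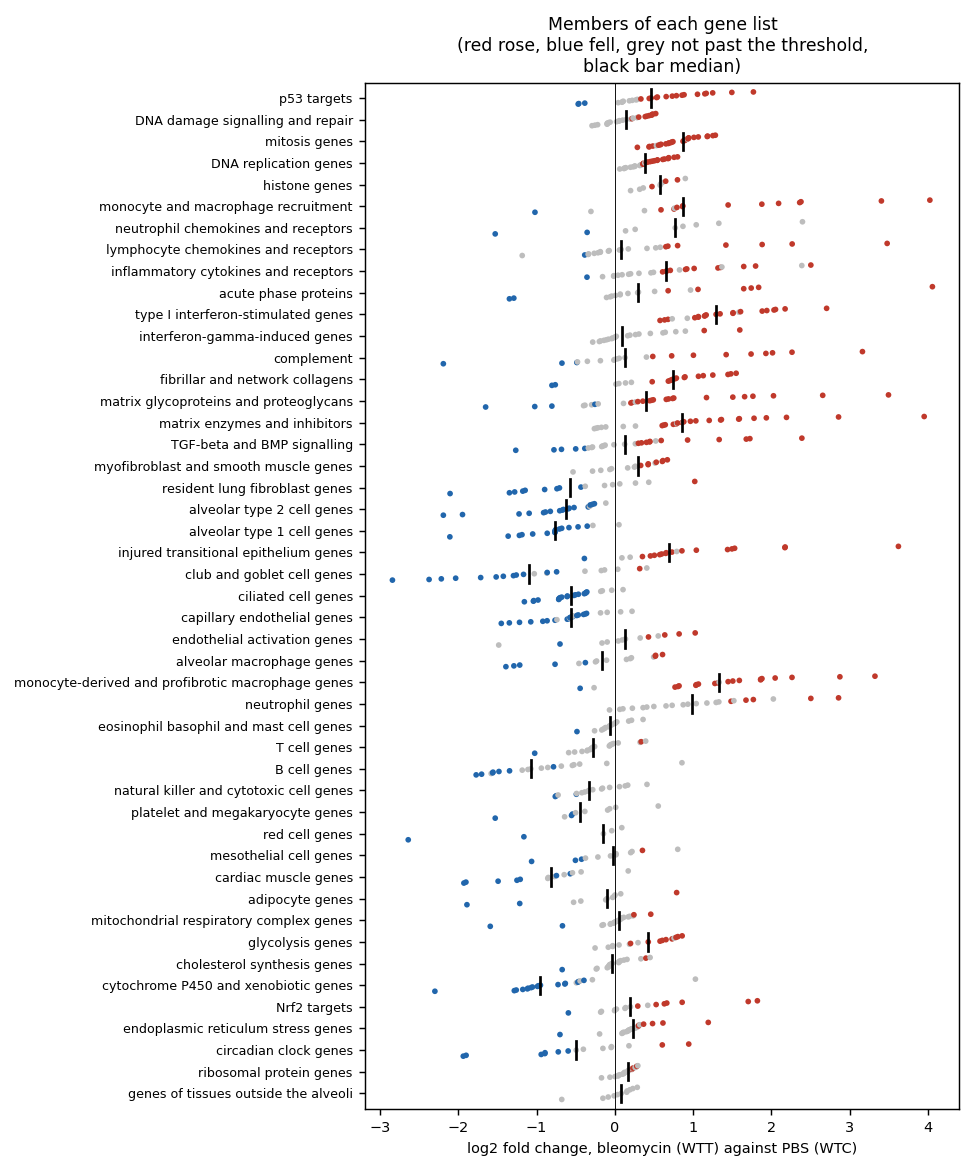
Log2 fold change (horizontal axis) of every measured member of each of the 47 gene lists, with red points for members that rose, blue for members that fell, grey for members that did not pass, and a black bar at the median of the list. The medians of type I interferon, mitosis and monocyte-derived macrophage genes lie to the right of 0. Those of alveolar, airway, capillary and xenobiotic genes lie to the left, and single members of several of these lists lie on the other side.

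Genes of monocytes and of the macrophages they become rose more than those of any other cell type list, by the median. In the list of monocyte-derived and profibrotic macrophages 18 of 21 rose and 1 fell, with a median of 1.33. Arg1 read at most 6.45 with PBS and then 8.07, 10.68 and 10.24, a rise of 3.33 (SE 0.62), so that WTT 160 was far below the other treated mice but still above every PBS mouse, and the rise was 4.12 without WTT 160. Trem2, a lipid-sensing receptor, rose by 1.88 (SE 0.18), Gpnmb by 1.86 (SE 0.22) and Fn1, fibronectin, which is also in the matrix list below, by 1.51 (SE 0.15). The C1q chains, which macrophages secrete, rose together, C1qa by 2.26 (SE 0.26), C1qc by 2.02 (SE 0.23) and C1qb by 1.93 (SE 0.19). Among recruitment genes 12 of 16 rose and 1 fell, with a median of 0.87. The ligands Ccl7 (7.73, 7.08 and 7.03, then 10.08, 10.81 and 11.17), Ccl9 (1.88, SE 0.26) and Ccl3 (2.38, SE 0.56, and 3.03 without WTT 160) rose, and so did the receptor Ccr2, by 1.45 (SE 0.15), from between 7.78 and 8.20 to 9.18, 9.46 and 9.69. Cx3cl1, the membrane-bound chemokine fractalkine, fell by 1.02 (SE 0.14), from between 9.34 and 9.49 to between 8.18 and 8.62.

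Resident alveolar macrophage genes did not move as a group. Of 16 measured 3 rose and 5 fell, with a median of -0.17. Fabp1, Krt79 and Cidec fell by 1.39, 1.29 and 1.21, and Mrc1, the mannose receptor, rose by 0.52 (SE 0.10). Marco (0.61) and Ctsk (0.52) also rose, but both calls were lost without WTC 157, WTC 158, WTT 161 or WTT 164, and Ctsk also without WTC 76. The defining marker Siglecf changed by -0.25 (adjusted p = 0.383), with 8.50, 8.66 and 8.87 and then 8.35, 8.58 and 8.35. Leaving out WTT 161 left 1 gene that rose and 3 that fell.

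Cytokines, their receptors and acute phase proteins rose in part. Of 26 cytokine genes 12 rose and 1 fell, with a median of 0.66. Lif, a cytokine of the interleukin 6 family, read 6.15, 6.04 and 6.28 and then 7.95, 7.70 and 8.22, a rise of 1.80 (SE 0.14, adjusted p = 5.4e-05), and Osmr, a receptor of the same family, rose by 0.90 (SE 0.12). Il4ra, the shared receptor chain for interleukins 4 and 13, rose by 1.01 (SE 0.10) and Tnfrsf1b by 0.92 (SE 0.15). Other members depended on the mouse. Il1b read 8.81, 9.61 and 11.70 in WTT against 8.40, 8.60 and 9.01 in WTC, and Il1a 6.64, 7.19 and 9.43 against 7.93, 6.60 and 7.24. For both the groups overlapped, the differences of 1.37 and 0.49 did not pass, and WTT 164 stood far above the other treated mice. The number of cytokine genes that rose was 7 without WTC 157 or without WTT 164. The gene that fell, the inflammasome cytokine Il18 (-0.36), kept its call only when WTT 164 was the mouse left out. Of 19 acute phase genes 6 rose and 2 fell. Serpina3n, a serine protease inhibitor, rose by 1.74 (SE 0.15), from between 11.25 and 11.54 to between 12.89 and 13.24, and Orm1, orosomucoid, by 1.84 (SE 0.36), while Saa1 and Saa2, the liver-type serum amyloids, stayed at or below 5.13 in all mice. In this list the count that rose was 3 without WTC 157, WTT 161 or WTT 164. The count that fell was 0 without WTT 161 and 1 in each other omission, and Hamp (-1.29), which encodes hepcidin, kept its call only without WTT 164.

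The chemokines that act on lymphocytes were mixed, and those that act on neutrophils differed between mice. Of 23 lymphocyte chemokines and receptors 7 rose and 1 fell, with a median of 0.08, and Cxcl10 stood above the rest. Cxcl16, Cxcl12 and Cxcl14 rose by 0.65, 0.68 and 0.80. Cxcl9 read 9.55, 6.88 and 8.57 and then 9.98, 10.40 and 10.27, a rise of 1.88 (SE 0.60), and lost its call in every omission but that of WTC 76, down to 1.16 without WTC 157. The count that rose was 4 without WTC 158 or WTT 164, and the 1 fall was lost without WTC 158, WTT 160 or WTT 164 while 2 genes fell without WTC 157. Among 9 neutrophil chemokines and receptors 2 fell and 0 rose by limma, while 5 rose at an unadjusted p under 0.05 and 3 by the local-pooled-error test or with array weights. Without WTT 160 4 rose and without WTT 161 1, and 1 fell without WTC 157, WTC 158, WTT 161 or WTT 164. Cxcl2 read 5.14, 4.94 and 5.10 and then 5.47, 7.02 and 9.89, so WTT 164 was 4.42 above WTT 160 on the log2 scale. Its difference of 2.40 had an SE of 0.90 and did not pass (adjusted p = 0.0829), and it passed without WTT 160 (3.39, adjusted p = 0.0129). Ppbp, a platelet chemokine in the same list, fell by 1.53 (SE 0.36).

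Most type I interferon-stimulated genes rose, while the interferon-gamma-induced genes that rose past the adjusted threshold were near the share of all clusters. Interferon-gamma-induced genes with every WTT mouse above every WTC mouse were more than the matching share. Of 23 type I genes 20 rose, with a median of 1.29, and in all 23 every WTT mouse lay above every WTC mouse. Irf7, the transcription factor that amplifies type I interferon, had a PBS mean of 8.72 and then read 11.15, 11.40 and 11.72, a rise of 2.71 (SE 0.38, 6.53-fold, adjusted p = 8.5e-04). Oas2, an RNA sensor, rose by 2.18 (SE 0.39), Ifit1 by 1.94 (SE 0.38) from 8.52, 8.64 and 8.60 to 10.24, 10.16 and 11.19, Oasl2 by 1.51 (SE 0.26), Ifit3 by 1.35 (SE 0.32) and Bst2, which tethers virus particles, by 1.07 (SE 0.18). Ifit3 missed the threshold without WTT 164 (adjusted p = 0.0548), and WTT 164 had the largest shift in this list, a median of 1.77 against 1.11 and 1.06 in the other treated mice. Of 22 interferon-gamma genes 2 rose, Iigp1 (1.60, SE 0.35) and Irgm1 (1.14, SE 0.31), with a median of 0.09, against 10.2% of all clusters that rose. Gbp2, Irgm2, Igtp, Tgtp1, Ifi47, H2-K1 and H2-D1 of the 29 genes written were not read, as their clusters carry several symbols. In 10 of the 22 every WTT mouse lay above every WTC mouse, against 18.3% of all clusters. At an unadjusted p under 0.05 by limma 7869 of all 23410 clusters differed, with both directions counted together. Of the 22 genes 8 were higher and 0 lower at that level. By the local-pooled-error test 4 rose, and 5 rose in the fit to the 6 arrays. The difference between the lists was not tested. The guanylate-binding proteins Gbp3 and Gbp4 changed by 0.64 and -0.08 without passing. Irgm1 lost its call without WTC 157, WTC 158 or WTT 164, and without WTC 76 4 of the genes rose. Of 21 complement genes 9 rose and 3 fell. Beside the C1q chains, C3ar1 read 8.72, 7.97 and 8.37 and then 11.11, 12.04 and 11.40, and the falls were Hc, C6 (-0.68), a subunit of the membrane attack complex, and Cd55 (-0.49), an inhibitor of complement on cell surfaces.

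Neutrophil genes separated the 3 treated mice from each other. Of 22 measured 5 rose by limma and 14 by the local-pooled-error test, with a median of 0.99. The latter test leaves out each gene's own spread between mice, which was wide here. The median distance from the PBS mean was 0.09 in WTT 160, 0.89 in WTT 161 and 2.03 in WTT 164. S100a8, a calcium-binding protein that neutrophils hold in bulk, read 9.17, 9.56 and 9.33 and then 9.02, 10.81 and 12.11, and S100a9, its partner, 9.38, 9.83 and 9.06 and then 9.49, 10.38 and 11.94. The surface marker Ly6g read at most 6.54 with PBS and then 6.34, 7.30 and 8.57. In all 3 of these genes WTT 160 lay within or below the range of the PBS mice and WTT 164 was highest. The adjusted p was 0.167, 0.166 and 0.165, and each of them passed without WTT 160. Mmp8, neutrophil collagenase, rose by 2.86 (SE 0.46), from between 6.90 and 7.17 to 9.02, 10.27 and 10.52, and Ngp, a granule protein, by 1.49 (SE 0.26), from between 5.82 and 6.10 to 7.52, 6.78 and 8.13. Without WTT 160 the count that rose was 15 of 22, and without each of the other mice between 2 and 3.

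Fibrillar collagens and provisional matrix proteins rose 5 days after bleomycin. Of 21 collagen genes 15 rose and 2 fell, with a median of 0.74, and the 2 that fell were the basement membrane chains Col4a3 and Col4a4 named above. Col3a1 read 9.63, 9.11 and 9.29 and then 10.78, 11.00 and 10.69, a rise of 1.48 (SE 0.15, 2.80-fold, adjusted p = 2.0e-04). Col1a1 and Col1a2, the chains of type I collagen, rose by 1.45 (SE 0.16) and 1.25 (SE 0.15). Col5a2 rose by 1.55 (SE 0.14), Col4a1, of the general basement membrane, by 0.90 (SE 0.10) and Col6a2 by 0.89 (SE 0.08). The 3 treated mice were alike here, with list medians of 0.60, 0.80 and 0.79 over the PBS mean.

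Of 28 matrix glycoproteins and proteoglycans 18 rose and 4 fell, with a median of 0.40. Beside Tnc, the large proteoglycan Vcan read 7.45, 7.25 and 7.31 and then 9.49, 9.77 and 10.72, a rise of 2.66 (SE 0.28), Thbs1, thrombospondin 1, rose by 2.03 (SE 0.18) and Fn1 reached 13.03, 13.49 and 13.34. Lama3, a laminin chain of epithelial basement membrane, went the other way, from 9.81, 9.91 and 9.89 to 8.49, 8.05 and 8.12, a fall of 1.65 (SE 0.22), and Ogn, osteoglycin, fell by 1.02 (SE 0.20). Fbln5 and Postn, periostin, changed by -0.80 and -0.25, and without WTC 157, which ended both calls, the number that fell was 2. Fbln5 was also lost without WTT 164, and Postn without WTC 158 or WTT 161. Among matrix enzymes and their inhibitors 20 of 29 rose, with a median of 0.86. Mmp14, a membrane-bound collagenase that is also in the macrophage list, read 9.60, 9.42 and 9.58 and then 11.00, 11.22 and 11.15, a rise of 1.59 (SE 0.12, adjusted p = 5.4e-05). P4ha3, a prolyl hydroxylase of collagen, rose by 1.94 (SE 0.21) and Lox, the cross-linking lysyl oxidase, by 1.78 (SE 0.24). Mmp10, stromelysin 2, rose by 0.62 (SE 0.07) from a level near the background, 6.64 to 6.65, to between 7.20 and 7.36.

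TGF-beta is the main driver of matrix production by fibroblasts, and BMP signals through related receptors. Of 27 genes of these pathways 11 rose and 5 fell, with a median of 0.13, where 10.2% of all clusters rose and 11.3% fell. Tgfb1 itself rose by 0.45 (SE 0.09), from 10.35, 10.25 and 10.49 to 10.71, 10.77 and 10.95, while Tgfb2 (-0.16) and Tgfb3 (-0.01) did not pass. Among secreted regulators and targets, Fst, follistatin, read 6.89, 7.23 and 6.89 and then 8.60, 9.37 and 10.22, a rise of 2.39 (SE 0.34), Tgfbi rose by 1.68 (SE 0.18), Fstl1 by 1.33 (SE 0.13) and Ltbp2, a latent TGF-beta binding protein, by 0.93 (SE 0.11). Among the 5 that fell were the ligand Bmp6 by 1.27 (SE 0.19), the inhibitory Smad6 by 0.78 (SE 0.19) and the TGF-beta co-receptor Tgfbr3, betaglycan, by 0.50 (SE 0.09). Another, the ligand Bmp4 (-0.68), was lost as a call in each omission but that of WTC 76, and the count that fell was 3 without WTC 157, WTC 158, WTT 161 or WTT 164.

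Markers of resting lung fibroblasts fell, and contractile genes rose by small amounts. Of 16 resident fibroblast genes 9 fell and 1 rose, with a median of -0.57. Slc7a10, an amino acid transporter, read 9.63, 9.72 and 9.82 and then 7.83, 7.58 and 7.43, a fall of 2.10 (SE 0.18, adjusted p = 8.2e-05). Inmt, a methyltransferase of lipid-rich fibroblasts, fell by 1.28 (SE 0.17) from levels of 13.25 to 13.58, Tcf21, their transcription factor, by 0.90 (SE 0.14) and Npnt, nephronectin, by 0.74 (SE 0.13). Plin2, a lipid droplet protein that foamy macrophages also express, was the gene that rose (1.02, SE 0.23). Of 16 myofibroblast and smooth muscle genes 7 rose, with a median of 0.30. Acta2, smooth muscle actin, read 11.61, 11.47 and 11.40 and then 11.94, 12.40 and 11.96, a rise of 0.61 (SE 0.15), Tagln rose by 0.62 (SE 0.12), Cald1 by 0.67 (SE 0.10) and Flna by 0.43 (SE 0.09). Myh11, the myosin of mature smooth muscle, changed by -0.04 (adjusted p = 0.876). The number that rose was 4 without WTC 158 or WTT 161.

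Capillary endothelial genes fell. Of 24 measured 17 fell, with a median of -0.57, and WTT 161 and WTT 164 were lower than WTT 160 (-0.72 and -0.66 against -0.39). Aplnr, the apelin receptor, read 9.99, 9.87 and 10.20 and then 8.95, 8.81 and 7.95, a fall of 1.45 (SE 0.26), and Tmem100 fell by 1.35 (SE 0.18). Ednrb, an endothelin receptor of aerocytes, fell by 1.22 (SE 0.14), from between 10.34 and 10.63 to between 9.16 and 9.49, and Hpgd, which inactivates prostaglandins, by 1.07 (SE 0.16). Kdr, the main receptor for vascular endothelial growth factor, fell by 0.92 (SE 0.18). The count was 11 without WTC 157 or WTT 161. Of 13 endothelial activation genes 4 rose, led by Ackr1 (1.03, SE 0.21), the chemokine-binding receptor of venules, and Lrg1 (0.82, SE 0.19), and 2 did without WTC 157 or WTT 161. The 1 that fell, where 11.3% of all clusters fell, was Esm1 (-0.70, adjusted p = 0.0211), and it lost its call without either of these mice. The adhesion molecules were less clear, with 0.43 for Vcam1, lost without WTC 157, WTC 158, WTT 161 or WTT 164, 0.10 for Icam1 and 0.56 for Sele, where WTT 164 read 8.07 and the other treated mice 7.03 and 6.89.

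A number of B cell genes and some natural killer genes fell, and few T cell genes passed the test. Over all clusters 10.2% rose and 11.3% fell. Of 19 B cell genes 7 fell by limma and 16 by the local-pooled-error test, with a median of -1.07, although 1 gene was called higher by the latter. That test takes its spread from clusters of similar level, not from each gene's own spread between mice, so its larger count adds no support. Cd79b, a subunit of the B cell receptor, read 11.08, 9.76 and 10.62 and then 9.36, 8.56 and 8.87, a fall of 1.56 (SE 0.34, adjusted p = 0.0074), and H2-Ob and Vpreb3 fell by 1.48 (SE 0.35) and 1.34 (SE 0.24). Ms4a1, which encodes CD20, read 9.89, 7.63 and 8.75 and then 7.74, 6.71 and 7.07, and did not pass (-1.58, adjusted p = 0.0658). The median distance of the B cell list from the PBS mean was 0.66 in WTC 76 and -0.72 in WTC 157, as low as the -0.71 of WTT 160. Without WTC 157 13 genes fell and without WTT 161 4. Of 21 T cell genes 1 rose and 1 fell, the adhesion molecule Cd2 falling by 1.02 (SE 0.21), and the T cell receptor chains Cd3e (-0.35), Cd3g (-0.59) and Cd3d (-0.06) did not pass. Here too the PBS mice were far apart, with list medians of 0.51 in WTC 76, -0.43 in WTC 157 and -0.09 in WTC 158. The T cell gene that rose was Foxp3, of regulatory T cells (0.34), and it was lost without WTC 157, WTC 158 or WTT 161. Of 17 natural killer genes 3 fell, Gzma (-0.76), Ncr1 (-0.75) and Klra8 (-0.49), all lost without WTC 76, WTT 161 or WTT 164, while 6 genes fell without WTC 157 and 5 without WTT 160. At an unadjusted p under 0.05, 7 natural killer genes were lower and 1 higher, and the list medians were 0.13, -0.26 and 0.16 in the PBS mice and -0.17, -0.29 and -0.39 in the treated mice. Without WTC 157 4 T cell genes fell. Genes of eosinophils, basophils and mast cells showed 1 call in 16, Gata2 (-0.48), which held only without WTC 76, and a median of -0.06.

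**Figure D4:**
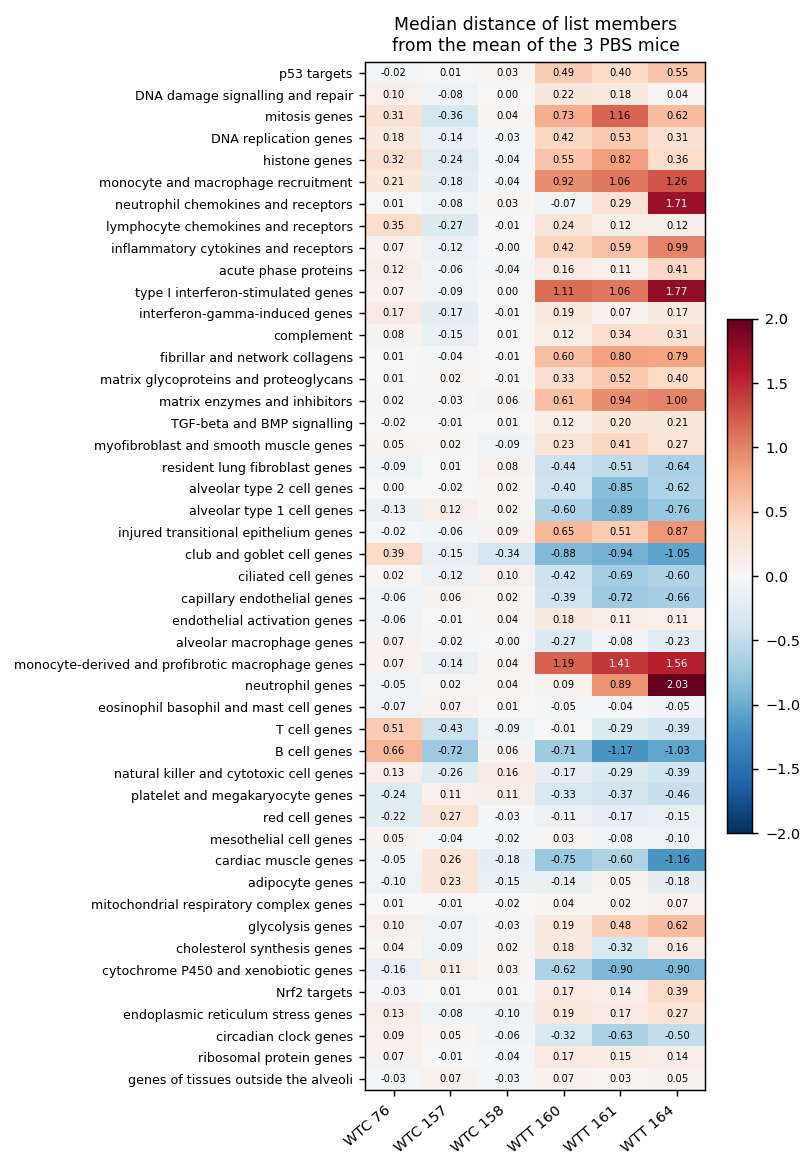
For each gene list (rows) and wild-type mouse (columns), the median over the measured members of the distance from the mean of the 3 PBS mice, in log2 units, with red above and blue below that mean. WTC 76 and WTC 157 differ in B and T cell genes, and WTT 164 stands above the other treated mice in neutrophil genes (2.03).

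Among cells and tissues carried along with a lung sample, heart muscle genes fell in number and the others less, where 10.2% of all clusters rose and 11.3% fell. Of 14 cardiac muscle genes 7 fell, with a median of -0.81; the pulmonary veins of the mouse have a sleeve of heart muscle. Myl4, an atrial myosin light chain, read 11.93, 12.15 and 11.77 and then 10.22, 10.43 and 9.49, a fall of 1.90 (SE 0.31), Myl7 fell by 1.93 (SE 0.39) and Tnni3, cardiac troponin I, by 1.49 (SE 0.31). The count was 3 without WTC 157 or WTT 164. Of 5 red cell genes 2 fell, Alas2 (9.82, 10.77 and 10.56, then 7.37, 8.02 and 7.85) and Slc4a1, the anion exchanger, by 1.16 (SE 0.20). Of 10 platelet genes 3 fell, of which Gp5, a von Willebrand factor receptor subunit, fell by 0.54 (SE 0.13) and Pf4, which macrophages can also express, changed by 0.56 without passing, and 5 fell without WTC 76. Of 12 mesothelial genes 3 fell and 1 rose, Gpm6a falling most (-1.06, SE 0.14), while the defining markers Msln (0.80) and Wt1 (0.22) did not pass, and 1 fell without WTC 158, WTT 161 or WTT 164. Adipocyte genes showed 2 falls and 1 rise in 11, with 1 fall left in every omission but that of WTT 161, and the defining Adipoq (-0.43) and Plin1 (-0.10) did not pass. The part that unequal dissection or blood content had in these differences was not tested.

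Among metabolic and stress genes, glycolysis and antioxidant genes rose in part. Of 17 glycolysis genes 9 rose, with a median of 0.43, led by Pkm (0.86, SE 0.12), pyruvate kinase, Pgam1 (0.78), Pgk1 (0.73) and Ldha (0.61), lactate dehydrogenase. Those named from several clusters (Pkm, Pgam1 and Pgk1) rose at every cluster. The count was 4 without WTC 157 and 5 without WTT 164. Of 17 Nrf2 targets 7 rose and 1 fell. Hmox1, haem oxygenase, read 9.25, 8.86 and 8.97 and then 9.99, 11.30 and 10.91, a rise of 1.71 (SE 0.29), Srxn1 rose by 0.86 (SE 0.12) and Txnrd1 by 0.63 (SE 0.12), while Nqo1, a defining target, changed by -0.00. The count was 4 without WTC 157 or WTT 164. Of 22 endoplasmic reticulum stress genes 6 rose and 1 fell, Atf3 by 1.19 (SE 0.21) and Herpud1 by -0.70 (SE 0.13), with 1 to 3 rises left in 5 of the 6 omissions (WTC 157, WTC 158 and each WTT mouse).

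Clock genes shifted, with the output genes down. Of 15 measured 7 fell and 2 rose. Nr1d1, the repressor Rev-erb alpha, read 12.16, 11.94 and 11.99 and then between 9.96 and 10.32, a fall of 1.94 (SE 0.15, 3.83-fold, adjusted p = 5.9e-05), and Dbp, an output transcription factor, fell by 1.90 (SE 0.34), from 10.45, 10.04 and 10.04 to 9.12, 7.93 and 7.77. Tef and Cry2 fell by 0.89 and 0.60, Bhlhe40 and Cry1 rose by 0.95 and 0.61, and the core activators Arntl (0.18) and Clock (-0.15) did not pass. The hour at which each lung was taken is not in the labels, so a difference in hour and an effect of bleomycin cannot be told apart. The number that fell was 4 without WTC 76, WTC 157, WTT 161 or WTT 164. Genes of the respiratory complexes (2 rose and 2 fell of 24), of cholesterol synthesis (1 and 1 of 20) and of ribosomal proteins (3 rose of 21) stayed below the background share in each direction, save for ribosomal genes that rose, of which none kept the call without WTC 157 or WTC 158. Cox7a1, the muscle form of a cytochrome oxidase subunit, fell by 1.59 (SE 0.27), and Ppargc1a by 0.67 (SE 0.15). Of the 11 genes of other tissues 0 passed by limma or by the local-pooled-error test, and 1 had an unadjusted p under 0.05.

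The 3 treated mice did not respond to the same extent. Among the 2386 clusters that rose, WTT 164 was the highest treated mouse in 48.2%, WTT 161 in 38.0% and WTT 160 in 13.8%. Among the 2641 that fell, WTT 160 was the lowest in 13.6%, against 44.4% for WTT 161 and 42.0% for WTT 164. Alveolar, ciliated and capillary genes were lowest in WTT 161 by list median, and neutrophil, type I interferon and cytokine genes highest in WTT 164. Among PBS mice WTC 76 lay nearest to the treated mice in 49.8% of the clusters that rose and 49.9% of those that fell. Without WTC 76 there were 2074 clusters that rose and 2296 clusters that fell, and without WTT 160 there were 2461 and 2750.

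The same comparison in Fra-1-/- lungs, on 6 other mice, was set beside the wild-type response. There 1736 clusters rose and 1868 fell, and of the clusters called in wild-type lungs 1314 of 2386 and 1457 of 2641 were also called in the same direction and 0 in the opposite one. The difference between the responses, tested as an interaction in the same fit, passed at 0 of 23410 clusters, with a smallest adjusted p of 0.117 (Abca17), and at 1193 with an unadjusted p under 0.05. The median SE of that difference was 0.14. For leading rises the difference of wild type minus knockout was -0.04 for Cldn4 (95% interval -0.49 to 0.41), 0.17 for Sprr1a (-0.77 to 1.12), 0.34 for Timp1 (-0.57 to 1.24) and 0.44 for Ccl2 (-1.17 to 2.05). These intervals leave room for differences of up to about 2 on the log2 scale for Ccl2.

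Of the named genes that passed in wild-type lungs, 35 of 235 (14.9%) had an unadjusted p under 0.05 for the difference, against 5.1% of all clusters, and none passed after adjustment. Those genes were chosen by their wild-type change, which is a term of that difference, so the higher share is no evidence of a difference. Tnc rose by 3.50 in wild-type and 2.34 in knockout lungs (difference 1.16, 95% interval 0.42 to 1.90, adjusted p = 0.845) and Fosl1 by 1.44 and 0.81 (difference 0.63, 95% interval 0.15 to 1.11, adjusted p = 0.914). The labels do not say where the Fosl1 probes lie relative to the deleted part of the gene, and KOT mice read 7.28 to 7.33 after 6.26 to 6.68 in KOC, so its level does not check the deletion. Col6a2 rose by 0.89 and 0.42 (adjusted p = 0.845), and the collagen list had medians of 0.74 and 0.40. Ciliated genes changed by a median of -0.56 and -0.24 and club and goblet genes by -1.10 and -0.56. Of their members 9 of 22 and 4 of 20 had an unadjusted p under 0.05 for the difference. Such counts were not particular to airway lists, with 8 of 21 collagens, 7 of 28 matrix glycoproteins and proteoglycans, 6 of 22 interferon-gamma genes and 4 of 14 cardiac muscle genes. In other lists there were none, as in the 18 type 1 and the 20 type 2 genes. Jchain read 6.85 to 7.53 in WTT, below the 9.02 to 11.81 of WTC, but 10.74 to 11.37 in KOT against 9.92 to 12.11 in KOC, a difference of -3.67 (95% interval -5.70 to -1.64, adjusted p = 0.845). Ngp rose by 1.49 in wild-type lungs and changed by -0.38 in knockout lungs (difference 1.86, adjusted p = 0.754). Every Fra-1-/- mouse has a low animal number and every wild-type mouse but WTC 76 a high one, so after bleomycin genotype and animal number cannot be told apart.

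**Figure D5:**
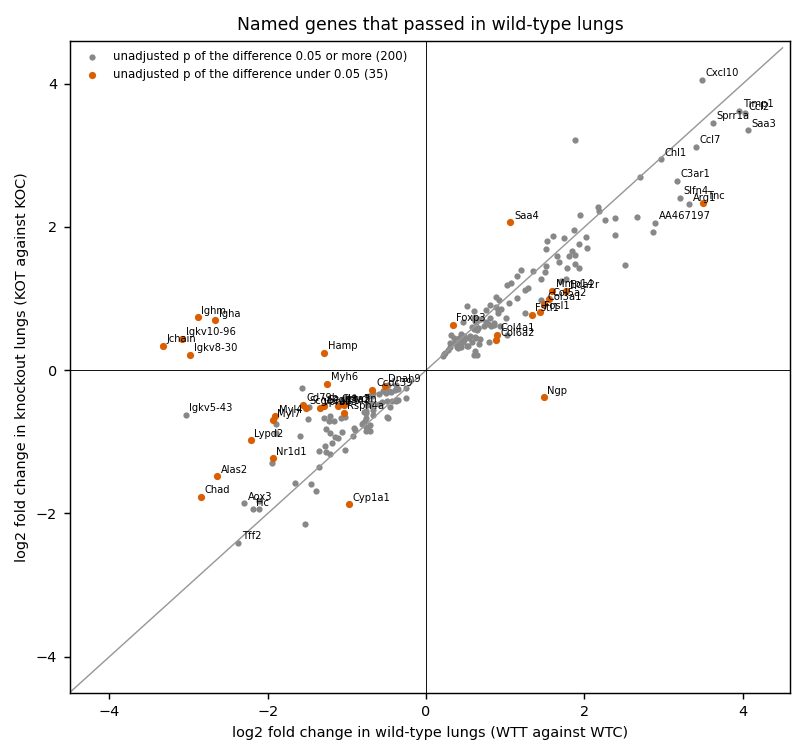
Log2 fold change with bleomycin in knockout lungs (vertical axis) against that in wild-type lungs (horizontal axis) for the 235 named genes that passed in wild-type lungs, with the line of equal change. Orange points are the 35 genes with an unadjusted p of the difference under 0.05, among them Tnc, Fosl1 and Jchain, and none of them passed after adjustment.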

How the data were processed

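Lung RNA of 12 mice, 3 per group, was measured on 1 array each. The authors applied quantile normalization across the 12 arrays, ran RMA (median polish) with Affymetrix Power Tools, version not given in the sources used here, and deposited log2 values for 35556 transcript clusters; quantile normalization forces equal distributions, so a shift of all transcripts would not be seen. No further normalization was applied. By the annotation of the probes, 23410 clusters carry a gene symbol and 21789 exactly 1, and symbols were updated through RefSeq (GRCm38.p6). A gene on several clusters was read at the one with the highest mean.

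Group means were estimated by limma (version 3.58.1, with statmod 1.5.0 and R 4.3.3) from the 12 arrays together, which leaves 8 residual degrees of freedom and gives each SE the spread of all 4 groups. The comparisons were WTT against WTC and its difference from KOT against KOC, with two-sided p adjusted by Benjamini-Hochberg over the 23410 clusters and a threshold of 0.05. The method was tested on simulated data. One alternative was a local-pooled-error test (threshold 0.01, 100 intensity bins), rewritten here after the method the study names and not run from its R library. Its counts are therefore not those of the authors. It compares group medians and takes the spread from clusters of similar level. Fewer arrays, weights, other normalizations and filters, and leaving out each mouse were further alternatives. The authors' filter on detection above background was not used here.

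The 47 gene lists (964 genes, 876 measured, 64 list entries without a cluster and 26 on clusters with several symbols only) and the named genes were chosen with earlier results of these data known, so their counts are descriptions. Named genes were the 12 largest rises and falls past the threshold with groups apart, up to 4 rising and 4 falling members of each list with the smallest p, the first 3 members of each list, and Fosl1, Sftpc, Scgb1a1 and Ager, 298 in all.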

Additional observations from a re-analysis of the deposited data

How the results depend on the processing

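No paired analysis was possible because the WTC and WTT mice share no animal numbers. With 2386 clusters that rose and 2641 clusters that fell, the local-pooled-error test called 809 and 1046, a fit to the 6 arrays alone 1584 that rose, an adjusted p under 0.01 left 1066 and 1297, and a change of at least 1 on the log2 scale 319 and 263. Leaving out 1 mouse gave between 1430 and 2461 that rose and between 1776 and 2750 that fell. Array weights, trended moderation, cyclic loess, equal medians, a filter at a mean of 6 and the test of all 35556 clusters stayed within 1.5 times of both counts. No named gene that passed turned its direction under these settings. Of the 235 named genes that passed, 232 kept the call with array weights, 204 in the fit to the 6 arrays, 172 by the local-pooled-error test and between 182 and 215 when 1 mouse was left out. The local-pooled-error test called 13 mitosis and 4 replication genes higher and none for repair, 10 matrix glycoprotein, 5 TGF-beta and BMP, 2 myofibroblast, 2 endothelial activation, 4 Nrf2, 3 endoplasmic reticulum stress and 14 neutrophil genes, and no alveolar macrophage or ribosomal gene. It called 11 type 2, 9 ciliated, 10 capillary, 3 TGF-beta and BMP, 3 alveolar macrophage and 16 B cell genes lower. The cause of the lost calls was not tested, but leaving out a mouse also leaves a group of 2. Signal near the background limits genes such as Mmp10, Saa1 and Fabp1, and levels near 14 limit Sftpc and Scgb1a1.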
